A study of Mus musculus with 13 samples.

Results

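The RNAs described here are 8 noncoding small nucleolar RNA (snoRNA) host transcripts, chosen by their gene symbols: Gas5, Snhg1, Snhg3, Snhg5, Snhg6, Snhg8, Snhg12 and Zfas1. All 8 were found among the 31528 genes of the mouse blastocyst RNA-seq table, and all 8 passed the filter on low counts that left 21808 genes for testing. The series asks how the pre-implantation mouse embryo enters diapause, a reversible arrest at the blastocyst stage. It holds 13 libraries from whole blastocysts on the B6D2F1 background, which mixes C57BL/6 with DBA2J.

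Embryos in 5 groups were taken at embryonic day 5.5. A group labelled sgNprl2+sgTsc2 ovariectomy (n = 2) carried guide RNAs against Nprl2 and Tsc2, has the genotype label of a knockout of both genes, and came from ovariectomised mothers. A group labelled starvation (n = 2) was wild type, with no further detail in the label. Wild-type embryos cultured in KSOM, a simple embryo medium, received it either with less arginine, leucine, isoleucine, lysine, glucose and lactate (reduced KSOM, n = 3) or with no protein and no carbohydrate in it (depleted KSOM, n = 2). Wild-type embryos from ovariectomised mothers (OVX, n = 2) stand for hormonally induced diapause. Wild-type embryos from mothers on a normal diet at day 4.5 (E4.5, n = 2) were the common reference. Age and treatment cannot be told apart in any comparison with E4.5, and no group in complete KSOM was analysed here. No group labelled with control guides was analysed either. Effects of guide delivery and of the loss of Nprl2 and Tsc2 therefore cannot be told apart. In whole embryos, fewer cells of a type and less RNA per cell cannot be told apart. Nothing in the labels shows that replicates came from different mothers or dishes, and the spread behind each p-value may be technical.

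Host transcripts of this class carry snoRNAs in their introns, which are cut out and trimmed after splicing and then guide the methylation or pseudouridylation of ribosomal RNA. The spliced exons that remain code for no known functional protein. Gas5, Snhg1 and several others are described as beginning with a 5′ terminal oligopyrimidine (TOP) tract, as messages for ribosomal proteins do. They are so loaded onto ribosomes when the growth kinase mTORC1 is active. Being read by ribosomes with only short open frames, they are then destroyed by nonsense-mediated decay. Gas5 (growth arrest specific 5) was named for its build-up in growth-arrested mouse cells, where this decay slows. Nprl2, as part of GATOR1, and Tsc2, as part of the tuberous sclerosis complex, both hold mTORC1 back, the first in answer to missing amino acids and the second by inactivating Rheb.

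The starts of these genes are shown because the TOP tract is what ties the class to mTORC1. RefSeq promoter sequences on GRCm38.p6 were held for 7 of the 8 genes, all but Snhg6. The search was for a C followed by at least 4 bases that are each C or T, on the transcript's strand, with the C within 20 bases of the annotated start. Such a tract stood near a start of 5 of the 7 genes. Counted by promoter, it stood in 5 of the 8 held for these genes and in 48.2% of all 32851 promoters in the same table, so the match is common. The more upstream start of Gas5 held no tract, and neither did those of Snhg1 and Zfas1. Each line runs from 40 bases before the start to 39 after the start base, with the tract in capitals.
Gas5: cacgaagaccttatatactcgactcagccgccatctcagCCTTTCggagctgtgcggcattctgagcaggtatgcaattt
Snhg12: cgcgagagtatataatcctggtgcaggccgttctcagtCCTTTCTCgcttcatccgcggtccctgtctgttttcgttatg
Snhg8: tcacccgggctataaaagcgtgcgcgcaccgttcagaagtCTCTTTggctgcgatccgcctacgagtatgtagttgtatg
Snhg5: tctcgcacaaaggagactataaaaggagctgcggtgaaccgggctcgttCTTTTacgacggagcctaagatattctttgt
Snhg3: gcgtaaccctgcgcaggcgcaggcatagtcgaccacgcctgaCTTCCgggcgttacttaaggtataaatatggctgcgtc
Snhg1: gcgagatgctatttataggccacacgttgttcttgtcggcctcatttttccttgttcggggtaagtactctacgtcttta
The Gas5 window is chr1:161035126-161035205 on the plus strand, at the more downstream of its annotated starts. That of Snhg12 is chr4:132308638-132308717 on the plus strand. Those of Snhg8 (chr3:123508297-123508376), Snhg5 (chr9:88522858-88522937) and Snhg3 (chr4:132353647-132353726) lie on the minus strand. The Snhg1 window, chr19:8723447-8723526 on the plus strand, is shown without capitals, since these letters were not found there. The tract of Snhg5 starts 9 bases after the annotated start and that of Snhg3 2 bases after. The search used annotated starts, so it does not show with which bases the transcripts begin. The words TATAAA or TATATA occurred within 50 bases before a start of 4 of the 7 genes (Gas5, Snhg5, Snhg8 and Snhg12) and in 3.67% of all promoters.

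Total counts per library ran from 40678386 to 72125687, and the members were well covered. Trophectoderm marker genes summed to 3260 and 5000 CPM (counts scaled to the library total) in sgNprl2+sgTsc2 OVX and 12800 and 6420 CPM in starvation. These sums were 20000, 18400 and 10100 CPM in reduced KSOM and 7690 and 8710 CPM in depleted KSOM. In OVX they were 4720 and 12000 CPM, and in E4.5 6290 and 9590 CPM. Epiblast markers summed to 27.3 to 168 CPM in the 11 libraries of day 5.5, against 296 and 258 CPM in E4.5, so this lineage's markers moved with every comparison with E4.5. Primitive endoderm markers summed to 32.2 to 209 CPM in the libraries of day 5.5, against 271 and 192 CPM in E4.5. Among the former were 50.4 and 54 CPM in sgNprl2+sgTsc2 OVX. Uterine epithelium markers summed to 10.3 and 17.7 CPM in E4.5 and 13.2 to 86.1 CPM in the other libraries. Mitochondrial genes took 12.2% and 13.2% of counts in depleted KSOM and 2.05% to 7.4% in the other libraries. Skeletal muscle markers other than Mylpf summed to 692 to 1070 CPM in reduced KSOM and 935 CPM in OVX replicate 1. In the remaining libraries they summed to at most 12.5 CPM. Acta1 had counts in 5 of the 13 libraries and Ckm in 12. Mylpf was left out of these sums and had counts in all 13 libraries, at 128 to 490 CPM. With Mylpf the sums were 989 to 1350 CPM in reduced KSOM, 1340 CPM in OVX replicate 1 and 131 to 493 CPM elsewhere. Neutrophil markers summed to 1360 to 1890 CPM in reduced KSOM, 642 and 133 CPM in OVX, and at most 32.9 CPM elsewhere. Immune markers summed to 201 to 260 CPM in reduced KSOM and to 308 and 5.53 CPM in OVX. In sgNprl2+sgTsc2 OVX they summed to 67.4 and 71.6 CPM, against at most 3.89 CPM in the remaining libraries. Red blood cell markers summed to 379 CPM in depleted KSOM replicate 1, 353 CPM in reduced KSOM replicate 3 and at most 83.7 CPM elsewhere. Abundance relative to the other libraries was rank-correlated with transcript length at −0.353 and −0.285 in sgNprl2+sgTsc2 OVX, 0.158 and 0.346 in starvation, −0.252, −0.142 and −0.238 in reduced KSOM, 0.326 and 0.253 in depleted KSOM, −0.244 and −0.046 in OVX, and 0.003 and 0.225 in E4.5. The part of these markers and shares in the results was not tested, except by a term marking the 4 libraries high in muscle markers and by offsets for length.

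In sgNprl2+sgTsc2 OVX embryos the targeted genes were still transcribed. Nprl2 stood at 13.9 and 28.6 CPM there, against 38.0 and 36.5 CPM in OVX. Tsc2 stood at 14.7 and 8.26 CPM, against 23.3 and 14.1 CPM in OVX. Neither difference passed the test, and since guide-induced mutations can leave a transcript in place, the RNA level is no check of the knockout.

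On CPM after trimmed-mean (TMM) scaling, used from here on, 7 of the 8 host RNAs were highest in sgNprl2+sgTsc2 OVX embryos. The exception was Snhg8, highest in E4.5. At the other end, Gas5, Snhg5, Snhg8 and Zfas1 were lowest in starvation, and Snhg1, Snhg6 and Snhg12 in depleted KSOM. On FPKM, which carries no such scaling, sgNprl2+sgTsc2 OVX was highest for 5 of the 8, and Snhg5, Snhg8 and Zfas1 were highest in E4.5. These are orders of group means, and most neighbours in them overlap, as the plot of levels by library shows.

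**Figure D1:**
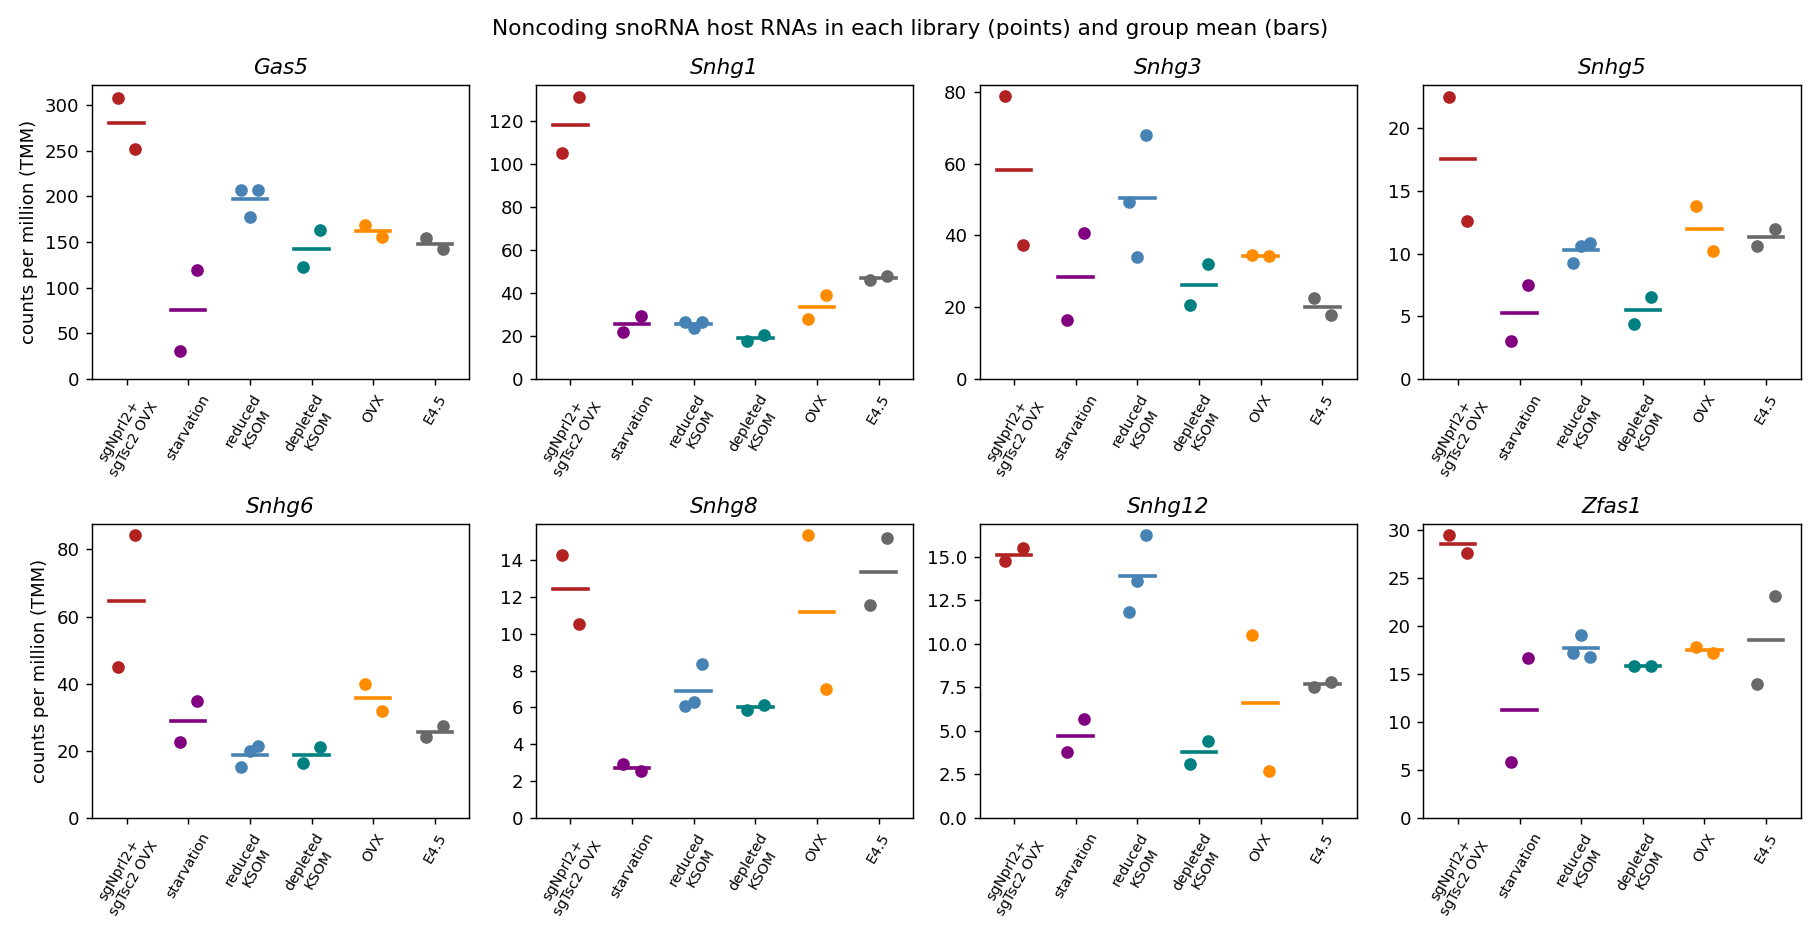
Level of each of the 8 host RNAs in TMM-scaled CPM (y axis, from 0, a different scale in each panel) in the 6 groups (x axis). Points are libraries and horizontal bars group means; Snhg1 stood at 105 and 131 CPM in sgNprl2+sgTsc2 OVX and under 50 in every other library.

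Whether any of the 6 groups differed was asked with edgeR's quasi-likelihood test, adjusted over all genes (Benjamini-Hochberg, threshold 0.05). Snhg1 (adjusted p = 0.0026) and Snhg6 (adjusted p = 0.0296) passed, 2 of 8 members, beside 12.3% of all genes tested. The adjusted p was 0.061 for Snhg8, 0.1 for Snhg12, 0.136 for Gas5, 0.153 for Snhg5, 0.181 for Snhg3 and 0.338 for Zfas1.

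Snhg1, whose introns hold a cluster of C/D box snoRNAs, gave the clearest differences. It was counted at 105 and 131 CPM in sgNprl2+sgTsc2 OVX, 21.7 and 29.5 CPM in starvation, 26.4, 23.8 and 26.8 CPM in reduced KSOM, 17.9 and 20.4 CPM in depleted KSOM, 28.1 and 39.0 CPM in OVX, and 46.1 and 48.0 CPM in E4.5. Both sgNprl2+sgTsc2 OVX libraries lay above every other library, and every other day 5.5 library lay below both E4.5 libraries. The order of means was sgNprl2+sgTsc2 OVX, E4.5, OVX, reduced KSOM, starvation and depleted KSOM, with overlap only between reduced KSOM and starvation among neighbours. Against E4.5, Snhg1 rose in sgNprl2+sgTsc2 OVX by 1.33 ± 0.32 on the log2 scale (standard error), or 2.51-fold (edgeR adjusted p = 0.0459). In that comparison it was 1 member called of 8, beside 2.66% of all genes. In depleted KSOM it fell by 1.297 ± 0.317 against E4.5 (2.46-fold lower, edgeR adjusted p = 0.0333), also 1 member of 8, beside 5.51% of all genes. Depleted KSOM is the group with the high mitochondrial share given above.

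Set against OVX, the wild-type group with the same age and treatment of the mother, Snhg1 stood 3.52-fold higher in sgNprl2+sgTsc2 OVX embryos. This log2 difference, 1.82 ± 0.32 with a 95% interval from 1.12 to 2.51, had an unadjusted p of 8.84e-05 and an edgeR adjusted p of 0.0721, so it was not called. In that comparison 0.0367% of all genes were called, 8 in number. With DESeq2 in place of edgeR, Snhg1 was called (adjusted p = 7.58e-10). It was also called when starvation replicate 1 or 2 was left out (edgeR adjusted p of 0.0313 and 0.0344), and not when any library of OVX, reduced or depleted KSOM or E4.5 was. Without sgNprl2+sgTsc2 OVX replicate 1 the adjusted p was 0.0435, and without replicate 2 it was 0.223, in fits where the 1 library left is assumed to vary like the other groups. The difference from OVX was called by edgeR without the filter on low counts (adjusted p = 0.0134) or with a mean CPM of at least 5 (0.0408). Limma on FPKM did not call it (adjusted p = 0.143 and 0.149). Nor did edgeR on the compared groups alone (0.595), with a block for replicate number (0.15) or with the muscle term (0.107). Scaled by library totals, the difference from OVX was 1.62 (adjusted p = 0.237), and that from E4.5 was 0.58 (adjusted p = 0.41). That scaling put the median of all genes at −0.93 in the comparison with E4.5, against −0.16 with TMM. The calls against E4.5 were each lost when any of several libraries was left out. For sgNprl2+sgTsc2 OVX these were either replicate of that group, of depleted KSOM or of E4.5, or any of reduced KSOM (adjusted p from 0.072 to 0.329). For depleted KSOM they were either replicate of that group or of E4.5, or any of reduced KSOM (adjusted p from 0.0548 to 0.274).

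Against E4.5, Snhg1 was also lower in starvation (log2 −0.88 ± 0.31, edgeR adjusted p = 0.173) and reduced KSOM (−0.87 ± 0.28, adjusted p = 0.159), and neither difference passed. Its difference between OVX and E4.5 was −0.49 ± 0.31 (adjusted p = 0.454). The gene lies at chr19:8723475-8726443 (GRCm38, plus strand), 105 bases from Slc3a2 on the opposite strand. Slc3a2 encodes the heavy chain of amino acid transporters and is induced by amino acid stress. Slc3a2 stood at 392 and 493 CPM in sgNprl2+sgTsc2 OVX, 354 and 204 CPM in starvation, 422, 325 and 336 CPM in reduced KSOM, 526 and 482 CPM in depleted KSOM, 325 and 577 CPM in OVX, and 155 and 167 CPM in E4.5. All 11 libraries of day 5.5 lay above both E4.5 libraries. Slc3a2 rose in depleted KSOM by 1.65 ± 0.36 against E4.5 (edgeR adjusted p = 0.0217), the comparison in which Snhg1 fell, and differed by −0.03 ± 0.36 between sgNprl2+sgTsc2 OVX and OVX (adjusted p = 1), the comparison with the largest difference of Snhg1 among the 10.

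**Figure D2:**
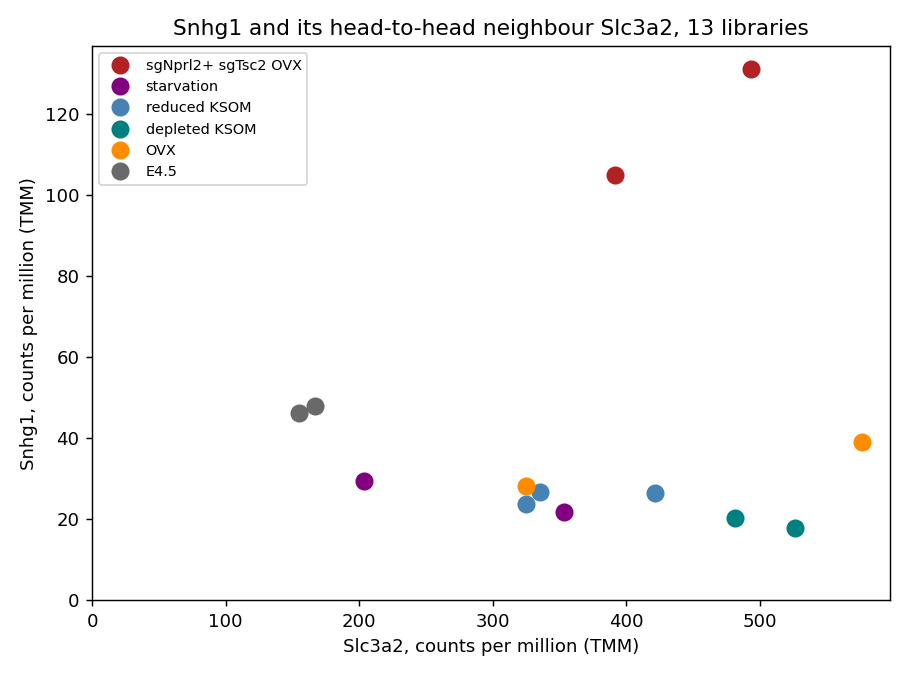
Snhg1 (y axis) against its neighbour Slc3a2 (x axis), both in TMM-scaled CPM from 0, with 1 point per library and colours for the 6 groups. Slc3a2 was lowest in the 2 E4.5 libraries at 155 and 167 CPM, and the 2 sgNprl2+sgTsc2 OVX libraries stand apart in Snhg1 and not in Slc3a2.

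Gas5, at chr1:161034422-161038539 on the plus strand, hosts a series of C/D box snoRNAs. It had the highest mean FPKM of the 8 in every group but starvation. FPKM divides by depth and by a gene length, here an implied 4161 bases for Gas5 and 1090 bases for Snhg3. Ranks of members by FPKM depend on these lengths. It measured 56.6 and 53.1 FPKM in sgNprl2+sgTsc2 OVX against 42.4 and 27.5 FPKM in OVX, with 48.9 and 47.8 FPKM in E4.5. On TMM-scaled CPM it was counted at 308 and 252 in sgNprl2+sgTsc2 OVX, 31.2 and 120 in starvation, 207, 177 and 207 in reduced KSOM, 122 and 163 in depleted KSOM, 168 and 155 in OVX, and 154 and 142 in E4.5. The sgNprl2+sgTsc2 OVX libraries were the highest, and starvation replicate 1 stood far below its partner and all others. Neighbours in the order of means did not overlap, except E4.5 and depleted KSOM. None of the differences of Gas5 passed the test. It was 1.73-fold higher in sgNprl2+sgTsc2 OVX than in OVX (log2 0.79 ± 0.47, edgeR adjusted p = 0.533) and 1.89-fold higher than in E4.5 (0.92 ± 0.47, adjusted p = 0.329). The difference from E4.5 was 0.16 with library totals, 0.18 with limma on FPKM and 1.501 with length offsets.

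In wild-type embryos of day 5.5 none of the differences of Gas5 from E4.5 passed either. OVX differed by 0.13 ± 0.46, with a 95% interval from −0.88 to 1.13 (edgeR adjusted p = 0.956). Depleted KSOM differed by −0.06 ± 0.46 (adjusted p = 1) and reduced KSOM by 0.41 ± 0.43 (adjusted p = 0.711). Intervals this wide do not show that Gas5 stayed level, and the signs of the OVX and reduced KSOM differences turned negative under library totals (−0.49 and −0.28). In starvation the log2 difference of Gas5 was −0.97 ± 0.47 from E4.5 (adjusted p = 0.317) and −1.10 ± 0.47 from OVX (adjusted p = 0.298). These values depended on the library. Without starvation replicate 1 they were −0.35 and −0.43. Without starvation replicate 2 they were −2.25 and −2.38, values of the 1 low library, and their adjusted p of 0.0127 and 0.0117 assume that it varied like the libraries of the other groups.

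Snhg8, host of an H/ACA box snoRNA that guides pseudouridylation, was the member called in starvation against E4.5. It was counted at 14.3 and 10.5 CPM in sgNprl2+sgTsc2 OVX, 2.90 and 2.53 CPM in starvation, 6.08, 6.27 and 8.38 CPM in reduced KSOM, 5.88 and 6.11 CPM in depleted KSOM, 15.3 and 7.002 CPM in OVX, and 11.5 and 15.2 CPM in E4.5. Both starvation libraries were the lowest of all 13, and all libraries of reduced and depleted KSOM also lay below both of E4.5. In starvation it fell by 2.30 ± 0.53 against E4.5 (4.92-fold lower, edgeR adjusted p = 0.0442), 1 member of 8 called, beside 2.21% of all genes. The call was lost when either replicate of starvation, depleted KSOM or E4.5, or any of reduced KSOM, was left out (adjusted p from 0.0653 to 0.241), and with offsets for transcript length (−2.02, adjusted p = 0.0652). Against OVX the difference in starvation was −2.04 ± 0.53 (edgeR adjusted p = 0.112). It depended on the OVX library set against it, at −1.37 without OVX replicate 1 (adjusted p = 0.595) and −2.50 without OVX replicate 2 (adjusted p = 0.038), each with 1 OVX library assumed to vary like the other groups. It was −1.37 with the muscle term (adjusted p = 0.459), which in this comparison marks OVX replicate 1 alone and so is no separate check. DESeq2 called the difference (adjusted p = 0.000257). In depleted KSOM Snhg8 differed from E4.5 by −1.16 ± 0.51 (adjusted p = 0.221). The gene occupies chr3:123507552-123508404 on the minus strand.

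Snhg6, host of a C/D box snoRNA, with its gene at chr1:9941959-9944118 on the minus strand, differed among the groups in edgeR's test over all 6 and was called by it in no single comparison. It was counted at 45.0 and 84.2 CPM in sgNprl2+sgTsc2 OVX, 22.8 and 35.0 CPM in starvation, 15.2, 19.9 and 21.6 CPM in reduced KSOM, 16.2 and 21.2 CPM in depleted KSOM, 39.8 and 31.9 CPM in OVX, and 24.1 and 27.3 CPM in E4.5. All sgNprl2+sgTsc2 OVX libraries lay above, and all KSOM libraries below, those of E4.5 and OVX. Its log2 difference of sgNprl2+sgTsc2 OVX from E4.5 was 1.33 ± 0.40, or 2.51-fold (edgeR adjusted p = 0.0961). That difference was called with DESeq2 (adjusted p = 0.00786) and with length offsets (1.57, adjusted p = 0.0442). It was 0.60 with library totals, 0.52 with limma on FPKM and 0.80 without sgNprl2+sgTsc2 OVX replicate 2. Against OVX, Snhg6 differed by −0.94 ± 0.39 in depleted KSOM (adjusted p = 0.27) and by −0.92 ± 0.35 in reduced KSOM (adjusted p = 0.421).

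Snhg3, which hosts long H/ACA snoRNAs, was the member with its lowest mean in E4.5. It stood at 78.8 and 37.4 CPM in sgNprl2+sgTsc2 OVX, 16.4 and 40.7 CPM in starvation, 49.2, 33.9 and 67.9 CPM in reduced KSOM, 20.6 and 32.0 CPM in depleted KSOM, 34.5 and 34.3 CPM in OVX, and 22.5 and 17.9 CPM in E4.5. Its replicates spread widely, and every pair of neighbours in the order of means overlapped. Against E4.5 the log2 difference was 1.53 ± 0.51 in sgNprl2+sgTsc2 OVX (2.88-fold, edgeR adjusted p = 0.134) and 1.32 ± 0.47 in reduced KSOM (2.50-fold, adjusted p = 0.211), and neither passed. The first was 0.89 without sgNprl2+sgTsc2 OVX replicate 1 and 0.74 with library totals, and DESeq2 called it (adjusted p = 0.0288), as did edgeR without the filter on low counts (adjusted p = 0.0391). The second was 0.62 with library totals. Snhg3, at chr4:132348014-132353686 on the minus strand, shares 1611 bases with the predicted gene Gm17300 on the other strand. The labels do not say that counting used strand, so reads of these genes cannot be told apart. Gm17300 itself was counted at 30.3 and 21.6 CPM in sgNprl2+sgTsc2 OVX and 4.21 and 6.81 CPM in E4.5 (2.23 ± 0.66, adjusted p = 0.0921). It differed by 0.01 ± 0.58 between reduced KSOM and E4.5 (adjusted p = 1).

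Snhg12 and Snhg5 were the members of lowest FPKM, at means of 3.89 and 3.80 FPKM in E4.5. The length implied by the FPKM of Snhg5 was 4065 bases, 2.35 times the union of its GENCODE M21 exons, which lowers its FPKM. Snhg12, host mainly of H/ACA box snoRNAs, was counted at 14.7 and 15.5 CPM in sgNprl2+sgTsc2 OVX, 3.77 and 5.66 CPM in starvation, 11.8, 13.6 and 16.2 CPM in reduced KSOM, 3.12 and 4.41 CPM in depleted KSOM, 10.5 and 2.71 CPM in OVX, and 7.52 and 7.81 CPM in E4.5. The libraries of sgNprl2+sgTsc2 OVX and reduced KSOM lay above all others. Its log2 difference between reduced and depleted KSOM was 1.88 ± 0.58, or 3.69-fold (edgeR adjusted p = 0.075). It was called without OVX replicate 1 or 2 (adjusted p of 0.0288 and 0.0347), and was 1.10 with limma on FPKM. The libraries high in muscle markers, OVX replicate 1 and all of reduced KSOM, held 10.5 to 16.2 CPM of Snhg12. OVX replicate 2, low in them, held 2.71 CPM. With a term for those 4 libraries the difference between reduced and depleted KSOM was −0.07 (adjusted p = 1). All reduced and no depleted KSOM libraries carry the term, so its size comes from the 2 OVX libraries alone, 1 against 1. In sgNprl2+sgTsc2 OVX, where Snhg12 was as high, muscle markers other than Mylpf summed to 3.08 and 0.983 CPM. The gene lies at chr4:132308623-132311024 on the plus strand.

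Snhg5, a host of U50 snoRNAs, stood at 22.5 and 12.6 CPM in sgNprl2+sgTsc2 OVX, 3.07 and 7.48 CPM in starvation, 9.27, 10.7 and 10.9 CPM in reduced KSOM, 4.43 and 6.57 CPM in depleted KSOM, 13.8 and 10.2 CPM in OVX, and 10.6 and 12.01 CPM in E4.5. The libraries of starvation and depleted KSOM were the 4 lowest. Its difference of starvation from OVX was −1.18 ± 0.53 (edgeR adjusted p = 0.32), and −1.97 without starvation replicate 2. Its deposited row spans 28295 bases, chr9:88495268-88523562, while the GENCODE M21 gene spans 1880 bases, so the count may take in other transcripts of that stretch.

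Zfas1, at chr2:167062934-167065862 on the plus strand, hosts C/D box snoRNAs and was counted at 29.5 and 27.6 CPM in sgNprl2+sgTsc2 OVX, 5.79 and 16.6 CPM in starvation, 17.2, 19.0 and 16.8 CPM in reduced KSOM, 15.8 and 15.8 CPM in depleted KSOM, 17.8 and 17.2 CPM in OVX, and 13.96 and 23.1 CPM in E4.5. Both sgNprl2+sgTsc2 OVX libraries lay above the rest, and starvation replicate 1 was again far below. No comparison of Zfas1 had an unadjusted p under 0.05. Its gene shares 82 bases with Znfx1 on the other strand.

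Over the 8 members, 7 of 8 were higher in sgNprl2+sgTsc2 OVX than in E4.5 without overlap, beside 19.3% of all genes tested, and the member median was 0.95 on the log2 scale, beside −0.16 for all genes (0.19 beside −0.93 with library totals). Against OVX, 6 of 8 were higher without overlap, beside 12.8% of all genes, with a member median of 0.77 beside −0.09, and all 8 differences were positive. All 8 stayed positive against OVX with library totals, median-of-ratios scaling, DESeq2, limma on FPKM and length offsets, and 7 of 8 without OVX replicate 2 or sgNprl2+sgTsc2 OVX replicate 1. Against E4.5, 5 of 8 were positive with library totals or FPKM, 8 of 8 with length offsets, and 7 of 8 with median-of-ratios scaling and DESeq2. The length offsets rest on lengths implied by counts and FPKM, 4161 bases for Gas5 and 3270 bases for Snhg1. The longest annotated transcripts of Gas5 and Snhg1 without a retained intron are 665 and 709 bases. Whether the offsets correct such genes for length was not tested. The comparisons with E4.5 and with OVX share the sgNprl2+sgTsc2 OVX libraries.

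In starvation, 5 of 8 members were lower than in E4.5 without overlap (24.7% of all genes), with a median of −0.80 beside 0. The median was −0.41 without starvation replicate 1 and −1.40 without starvation replicate 2. In depleted KSOM it was 5 of 8 (30.5% of all genes), with a median of −0.74 beside −0.09. Length offsets left the depleted KSOM median at −0.46 beside 0, with 6 of 8 members negative, against 7 of 8 in the main fit. Against OVX, all 8 differences were negative in both starvation (median −0.56 beside 0) and depleted KSOM (−0.81 beside −0.03), though library totals left 5 of 8 and 6 of 8 negative. The starvation median was −0.21 without starvation replicate 1 and −1.33 without starvation replicate 2. The depleted KSOM median was −0.31 without OVX replicate 1, the OVX library high in muscle and neutrophil markers, and −0.30 with the muscle term. In this comparison the term marks OVX replicate 1 alone, so these are not separate checks. Members lower than OVX without overlap numbered 4 in starvation (17.7% of all genes) and 6 in depleted KSOM (22.2% of all genes). Reduced KSOM was mixed, with 3 of 8 members higher (24% of all genes) and 3 lower (20.4% of all genes) than E4.5, and a median of −0.10 beside 0.15. All 8 were higher in reduced than in depleted KSOM, 6 of them without overlap (27.5% of all genes), but library totals left 5 of 8 positive, and the median of 0.45 stood beside 0.29 for all genes. Between OVX and E4.5, 4 members were positive and 4 negative, with a median of 0.002 beside 0, and library totals left 1 of 8 positive.

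By edgeR, 0 of 8 members were called in 7 of the 10 comparisons, which are given here with the members at an unadjusted edgeR p under 0.05 and those called by DESeq2 and by limma, each beside the share of all genes under the same rule. The DESeq2 shares are over all genes with any count, and genes without an adjusted p count as not called. The edgeR and limma shares are over the 21808 genes that passed the filter, so the DESeq2 shares are not on the same base. In OVX against E4.5, where edgeR called 2.04% of all genes, the members numbered 0 unadjusted (15.8%), 0 by DESeq2 (7.59%) and 0 by limma (8.41%). In reduced KSOM against E4.5, where edgeR called 1.13% of all genes, the members numbered 2 unadjusted (15.2%), 1 by DESeq2 (6.61%) and 2 by limma (10.3%). In sgNprl2+sgTsc2 OVX against OVX, where edgeR called 0.0367% of all genes, the members numbered 1 unadjusted (10.9%), 1 by DESeq2 (3.94%) and 0 by limma (0.243%). In starvation against OVX, where edgeR called 0.225% of all genes, the members numbered 3 unadjusted (15%), 1 by DESeq2 (6.54%) and 0 by limma (0.968%). In depleted KSOM against OVX, where edgeR called 0.679% of all genes, the members numbered 2 unadjusted (15.9%), 1 by DESeq2 (7.39%) and 0 by limma (1.35%). In reduced KSOM against OVX, where edgeR called 0.202% of all genes, the members numbered 1 unadjusted (9.48%), 0 by DESeq2 (2.79%) and 0 by limma (0.647%). In reduced KSOM against depleted KSOM, where edgeR called 5.79% of all genes, the members numbered 1 unadjusted (22.7%), 1 by DESeq2 (13.1%) and 0 by limma (9.14%).

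**Figure D3:**
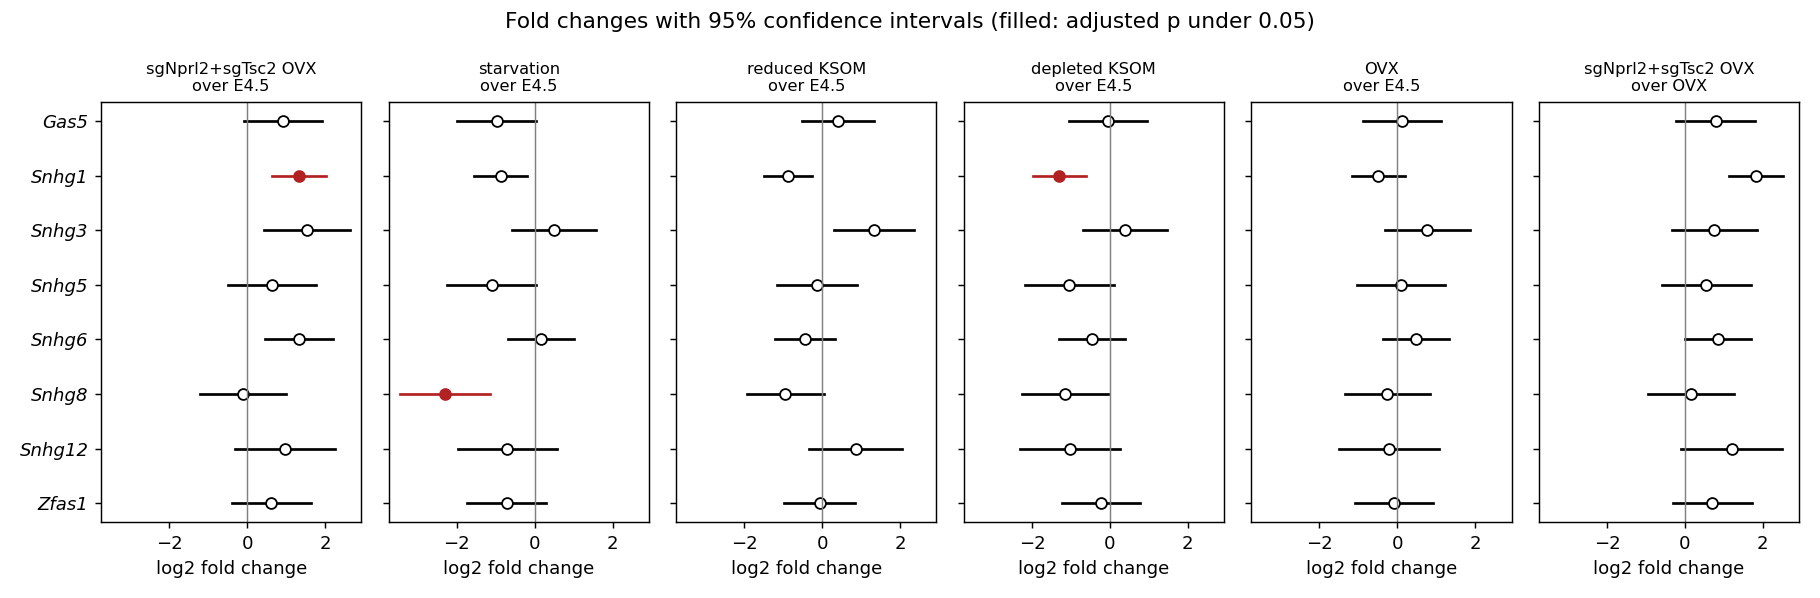
Log2 fold change (x axis) of each host RNA (y axis) in 6 comparisons, with approximate 95% confidence intervals derived from the edgeR F test, filled where the adjusted p was under 0.05. Filled points are Snhg1 in sgNprl2+sgTsc2 OVX (1.33) and depleted KSOM (−1.297) and Snhg8 in starvation (−2.30), each over E4.5.

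The snoRNAs themselves were hardly seen. The table held 32 rows for small RNAs of 60 to 205 bases inside the 8 genes, and 19 of these had at most 10 counts in every library. A single row, the predicted snoRNA gene Gm22357 in Gas5, passed 10 counts in all 13 libraries. The values above are therefore of the host transcripts. GENCODE M21 lists 25 transcripts of Gas5, 20 of them with a retained intron, and 18 of Snhg1, 14 of them with one, so counts per gene hold spliced and unspliced RNA together.

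Other genes of the pathway were counted from lists of known function, beside the percentages given above. Among 13 further noncoding snoRNA host gene rows, none was called in 9 comparisons, and Snhg20 was the 1 called in the other, higher in reduced than in depleted KSOM (2.48 ± 0.63, edgeR adjusted p = 0.0403). The median of these 13 for sgNprl2+sgTsc2 OVX against E4.5 was −0.09, beside 0.95 for the 8 members. Coding snoRNA hosts outside the ribosome had 5 of 13 lower in depleted KSOM than in E4.5, including Hspa8, a chaperone (log2 −2.43 ± 0.39, adjusted p = 0.00545), Ncl, or nucleolin (−1.23 ± 0.33, adjusted p = 0.0466), and Rcc1, a chromatin-bound exchange factor whose gene lies next to Snhg3 (−1.68 ± 0.40, adjusted p = 0.0314).

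Coding TOP messages were counted in the same way. Messages of cytosolic ribosomal proteins had 15 of 79 lower and 0 higher in depleted KSOM than in E4.5 (median −1.26), and 34 of 79 higher in reduced than in depleted KSOM (median 1.38). For sgNprl2+sgTsc2 OVX against OVX none of the 79 was called, with 69 positive and a median of 0.64. Among 15 other TOP messages, 4 were lower in depleted KSOM, including the elongation factor Eef2 (−1.47 ± 0.33, adjusted p = 0.0217) and the splicing factor Hnrnpa1 (−2.05 ± 0.40, adjusted p = 0.0119). Eef2 was the 1 of the 15 called in starvation, also lower (−1.68 ± 0.33, adjusted p = 0.0217).

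**Figure D4:**
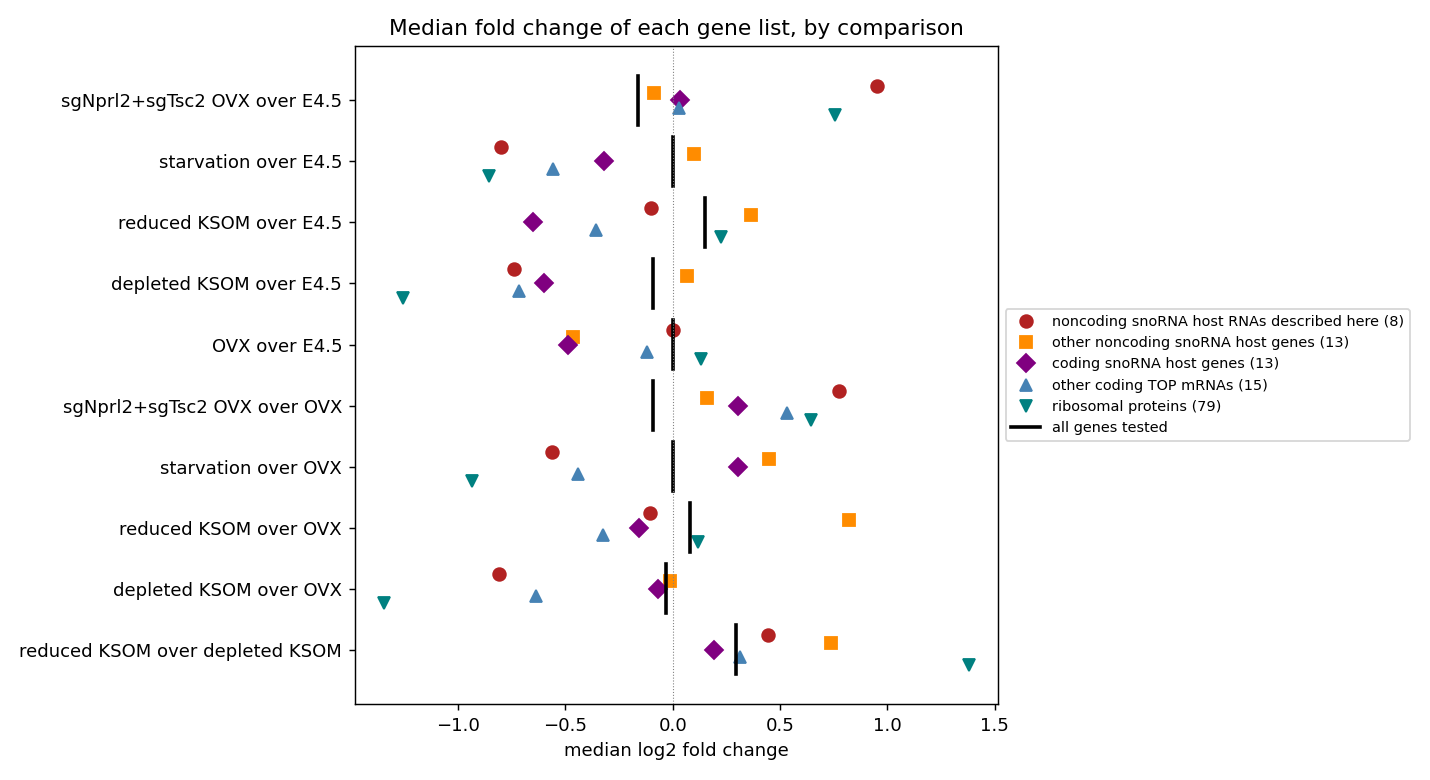
Median log2 fold change (x axis) of the 8 host RNAs and of 4 other gene lists in the 10 comparisons (y axis), with a vertical bar for the median of all genes tested. For sgNprl2+sgTsc2 OVX over E4.5 the 8 host RNAs stand at 0.95 and ribosomal proteins at 0.76, against −0.16 for all genes. The other coding TOP messages stand at 0.028, coding snoRNA hosts at 0.032 and the further noncoding hosts at −0.086. Comparisons share libraries and are not independent.

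Among regulators of TOP translation, Eif4ebp1, the inhibitor of cap-dependent translation that mTORC1 phosphorylates, was counted at 2527 and 3227 CPM in sgNprl2+sgTsc2 OVX, 551 and 481 CPM in OVX, and 339 and 307 CPM in E4.5. It rose by 2.48 ± 0.37 against OVX (edgeR adjusted p = 0.0415) and by 3.16 ± 0.38 against E4.5 (adjusted p = 0.00297), and was the 1 gene of 9 on its list called in each. Larp1, which binds TOP tracts and caps, fell by 1.54 ± 0.31 in starvation against E4.5 (adjusted p = 0.0265), the other gene of that list called in any of the 10 comparisons. Among 15 snoRNP proteins, 2 were called lower in depleted KSOM than in E4.5, Fbl (fibrillarin, the C/D box methyltransferase, −2.36 ± 0.38, adjusted p = 0.00545) and Ruvbl2, an ATPase of snoRNP assembly (−1.92 ± 0.46, adjusted p = 0.0301). Against E4.5, Fbl was the 1 called in reduced KSOM, also lower (−1.49 ± 0.33, adjusted p = 0.0497), and the assembly factor Znhit3 the 1 called in sgNprl2+sgTsc2 OVX, higher (2.12 ± 0.38, adjusted p = 0.0142). Nop10, a core protein of H/ACA particles (2.14 ± 0.41, adjusted p = 0.0162), and Ruvbl2 (1.67 ± 0.43, adjusted p = 0.0412) were higher in reduced than in depleted KSOM, and none of the 15 was called in the other 6 comparisons. Among 10 factors of nonsense-mediated decay, Upf3b alone was called in the 10 comparisons of pairs of groups, lower in depleted KSOM than in E4.5 (−1.84 ± 0.43, adjusted p = 0.0276) and higher in reduced than in depleted KSOM (1.91 ± 0.41, adjusted p = 0.0235).

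The 8 RNAs moved together to unequal degrees across the 13 libraries, which share scaling and group structure. Pearson's r of log2 CPM, given as a description, ran from 0.175 for Snhg3 with Snhg8 to 0.91 for Gas5 with Zfas1, with 0.841 for Gas5 with Snhg5. Of 4936 genes ranked by the likeness of their pattern to Gas5 over the 13 libraries, the closest were Hes1 (r = 0.952), Cyb5b (0.928), Zfas1 (0.91), Coa4 (0.88) and Hax1 (0.874).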

How the data were processed

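RNA of whole blastocysts was amplified as full-length cDNA (SMART-Seq v4), with no molecular identifiers named, so counting errors cover amplified copies too. The deposited table gives an estimated count per gene and library on GRCm38, in whole numbers per the file itself, and FPKM values that the authors made. Tools named in the submitters' processing notes are cutadapt 1.9, HISAT2 2.0.4 and StringTie 1.3.4d. The annotation and the counting tool are not given in the sources used here. Dividing deposited counts by FPKM implied gene lengths of 1.10 to 1.12 times the union of GENCODE M21 exons for 6 members, 2.35 times for Snhg5 and 0.73 times for Zfas1, so FPKM of genes with retained introns are divided by more than their spliced length.

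Genes were kept with filterByExpr and scaled by TMM (factors 0.672 to 1.41). All 13 libraries entered 1 edgeR 4.0.16 quasi-likelihood fit with 1 mean for each group, leaving 7 residual degrees of freedom, in R 4.3.3, and p-values were adjusted over all 21808 genes. The scripts were tested on simulated data. Alternatives were DESeq2 1.42.0, limma 3.58.1 on log2 of FPKM plus 1 or 0.1, other scalings and filters, and a fit of the compared groups alone. Others were a replicate block, length offsets, and a term for libraries above 100 CPM of muscle markers other than Mylpf. Each library was also left out in turn (a group left with 1 library is assumed to vary like the others). Libraries were grouped by their titles. The members, lists and tests were chosen with earlier results of these data known. Named genes are the 8 members, up to 4 called genes per list and comparison by adjusted p, the targeted genes, neighbours a result turns on, and the 5 genes most correlated with Gas5 of at least 4 in mean log2 CPM (prior count 2). Figures used matplotlib.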

Additional observations from a re-analysis of the deposited data

How the results depend on the processing

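Of 80 member fold changes, 3 were called, and none of these 3 turned sign under the 13 fits without 1 library or the other 11 alternatives. Of all 80, 31 turned sign under at least 1 alternative, and of the 17 with an unadjusted p under 0.05, 1 did. Members called in starvation against E4.5 (1) numbered 2 with DESeq2 and 0 with a fit of the compared groups alone, the replicate block or length offsets. Depleted KSOM against E4.5 (1) gave 2 with DESeq2 and with limma at either pseudocount, and 0 with library totals, no low-count filter or the replicate block. Reduced KSOM against E4.5 (0) gave 1 with DESeq2 and with the compared groups alone, and 2 with limma. The sgNprl2+sgTsc2 OVX group against E4.5 (1) gave 3 with DESeq2, 2 with length offsets, and 0 with library totals, limma, the compared groups alone or the replicate block, and without a filter Snhg3 was called in place of Snhg1. That group against OVX (0) gave 1 with DESeq2, no filter or a mean CPM of at least 5. Starvation and depleted KSOM against OVX (0) each gave 1 with DESeq2, and reduced against depleted KSOM (0) gave 1 with DESeq2, a mean CPM of at least 5 or the compared groups alone. Any difference among the groups (2) gave 7 with DESeq2, 4 without a filter and 1 with the replicate block. Leaving out 1 library gave 0 to 1 members in starvation, depleted KSOM and sgNprl2+sgTsc2 OVX against E4.5, in sgNprl2+sgTsc2 OVX and starvation against OVX and in reduced against depleted KSOM, 0 in the rest, and 1 to 4 for any difference. The cause of these shifts was not tested. Signs turned for Gas5 in OVX against E4.5 (−0.49 with library totals, −0.49 and −0.50 with limma at 1 and 0.1), in reduced KSOM against E4.5 (−0.28, −0.24 and −0.25), in depleted KSOM against E4.5 (0.11 with length offsets, and −0.28 to 0.14 without 1 library), and for Snhg12 in reduced against depleted KSOM (−0.071 with the muscle term). The share of all genes called moved widely: for sgNprl2+sgTsc2 OVX against OVX from 0% (compared groups alone) to 3.94% (DESeq2), and for any difference from 5.66% to 37.1%. These shares are over the genes kept in each fit, which for DESeq2 were all genes with any count. Of 30 same-numbered pairs of libraries, 11 correlated above 0.1 in their deviations from the group means (−0.137 to 0.23). In a group of 2 libraries these deviations mirror each other, so many of the values repeat. A pairing by replicate number was therefore neither shown nor excluded. Each group held 2 or 3 libraries, and the common biological coefficient of variation was 0.896.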
